A study of Mus musculus with 10 samples.

Results

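Loss of Vps34 in lung regulatory T cells (Tregs) was examined at the level of chromatin accessibility. Tregs are CD4+ T cells that express Foxp3 and restrain other immune cells, and Pik3c3 is the gene of the lipid kinase Vps34. The comparison took the 4 lung libraries of a series of 10, 2 from control and 2 from Vps34-deficient mice, and every peak in them. The other 6 libraries were from spleen, 2 control and 4 Vps34-deficient by the labels. The methods of the study give other numbers for the spleen genotypes, so every value below that uses spleen libraries rests on the labels. Accessibility was measured by ATAC-seq, in which the transposase Tn5 cuts DNA that is not wrapped in nucleosomes, so that the number of fragments in a peak reports how open that site is. All cells were CD4+Foxp3-YFP+TCRb+ Tregs sorted from 10-day-old mice. The Vps34-deficient mice carried Foxp3Cre with both copies of Pik3c3 floxed, and the control mice carried Foxp3Cre with no floxed copy or with 1. Both groups thus expressed Cre, from Foxp3, and the labels do not say which control had a floxed copy or whether mice were pooled for a library. The replicates are therefore separate samples, and p-values measure the spread between these samples only.

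Vps34 makes phosphatidylinositol 3-phosphate on endosomes and autophagosomes and is best known for its part in autophagy and vesicle traffic. In tissues such as the lung, a share of Tregs takes on an effector state marked by Klrg1 and by Il1rl1, the gene of ST2, which binds IL-33. Resting Tregs that circulate through lymphoid organs carry homing receptors such as the one encoded by Ccr7 instead. Enhancers and promoters that such cells use are open, and many enhancers opened by activation hold sites for AP-1, the family of Fos and Jun factors.

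Lung Tregs without Vps34 lost accessibility at more sites than they gained. Of 90786 tested peaks, 1684 were called lower (1.85% of those tested) and 139 called higher (0.153%). Lower calls outnumbered higher ones in every fit run, but the balance varied and was nearest to even without lung control 1. The lower peaks lay at Il10, Klrg1, Pparg, Il1rl1, Tigit and Tbx21 and in the region around Maf, among others, mostly away from gene starts. The higher peaks were scattered, with 2 at Ccr7 and 3 at Dusp10. A call is an adjusted p below 0.05 in edgeR's quasi-likelihood test, after Benjamini-Hochberg adjustment over all tested peaks, with a log2 fold change above 0.5 in size. An unadjusted p below 0.05 was reached by 13656 peaks. The median log2 fold change was -1.82 at the lower peaks and 1.30 at the higher peaks, against 0.018 over all tested peaks. In CPM (counts scaled to library size with TMM factors) the median lower peak went from 9.92 in controls to 2.70 in Vps34-deficient Tregs, and the median higher peak from 5.63 to 14.9. Of the lower peaks, 1498 were changed more than 2-fold, 696 more than 4-fold and 237 more than 8-fold. Of the higher peaks these numbers were 94, 39 and 23. In a mixed population, fewer cells with a site open and less opening in each cell cannot be told apart.

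The 4 libraries held between 9405823 and 14172956 counts, and the coefficient of variation between replicates was 22.1%. The first principal component held 52.9% of the variance and separated the genotypes. Correlation across peaks was 0.926 between the controls and 0.928 between the Vps34-deficient libraries, and 0.880 to 0.905 across genotypes. Lung control 2 was closer to the spleen controls (mean r = 0.905) than lung control 1 was (0.858), and also to the spleen Vps34-deficient libraries (0.889 against 0.860). It also held the most counts. For this reason the fold changes of the called peaks were recomputed with either lung control. Chromosome Y signal was 67.6 and 12.8 CPM in control 1 and control 2 and 21.4 and 63.4 CPM in Vps34-deficient 1 and 2. The libraries high in this signal were thus 1 of each genotype.

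The sequences shown here were chosen because they hold a short AP-1 word. Of the 12 lower peaks named below, 6 held it in the central 300 bp and 6 did not. Each is 121 bases of the plus strand of GRCm38, with the word TGANTCA (either strand) in capitals, at the middle. The first 5 come from those 12 peaks and the other 3 from genes with many lower peaks. They lie at chr2:137224818-137224938 (Jag1), chr19:46863710-46863830 (Nt5c2), chr13:99648067-99648187 (Map1b), chr4:117136222-117136342 (Plk3), chr4:98282504-98282624 (Tm2d1), chr1:131000498-131000618 (Il10), chr1:40393375-40393495 (Il1rl1) and chr6:115432621-115432741 (Pparg). The Nt5c2 and Pparg sites are intronic and the others intergenic.
Jag1: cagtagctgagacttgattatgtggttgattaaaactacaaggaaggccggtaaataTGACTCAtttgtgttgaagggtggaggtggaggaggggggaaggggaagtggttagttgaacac
Nt5c2: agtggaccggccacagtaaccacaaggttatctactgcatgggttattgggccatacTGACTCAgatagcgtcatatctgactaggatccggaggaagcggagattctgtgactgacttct
Map1b: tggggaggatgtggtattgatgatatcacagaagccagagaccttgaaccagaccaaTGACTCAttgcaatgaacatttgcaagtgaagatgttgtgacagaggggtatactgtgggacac
Plk3: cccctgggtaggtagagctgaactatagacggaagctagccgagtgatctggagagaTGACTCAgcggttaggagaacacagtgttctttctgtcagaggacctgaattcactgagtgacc
Tm2d1: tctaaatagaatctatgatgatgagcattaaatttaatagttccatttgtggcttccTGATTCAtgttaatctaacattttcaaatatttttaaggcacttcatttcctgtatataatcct
Il10: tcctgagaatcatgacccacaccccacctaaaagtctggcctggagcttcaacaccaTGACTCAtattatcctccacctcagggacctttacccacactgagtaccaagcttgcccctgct
Il1rl1: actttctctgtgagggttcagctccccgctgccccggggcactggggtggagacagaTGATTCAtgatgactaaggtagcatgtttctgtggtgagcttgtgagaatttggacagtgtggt
Pparg: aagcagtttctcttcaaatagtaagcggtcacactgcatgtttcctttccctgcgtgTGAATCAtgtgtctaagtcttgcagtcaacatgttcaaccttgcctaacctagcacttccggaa

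Of the sites that gained accessibility, 36.0% held a TCF/LEF word, against 21.4% of all tested peaks. The word TCAAAG or its reverse complement lay in 5 of the 10 named higher peaks, of which 3 are shown in the same way, with that word in capitals. They lie at chr7:129774308-129774428 (nearest start Wdr11, intergenic), chr2:105358297-105358417 (an intron, nearest start Rcn1) and chr6:99643589-99643709 (an intron, nearest start Eif4e3).
Wdr11: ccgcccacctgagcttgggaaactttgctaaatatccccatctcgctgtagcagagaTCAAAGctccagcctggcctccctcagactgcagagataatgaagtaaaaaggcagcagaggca
Rcn1: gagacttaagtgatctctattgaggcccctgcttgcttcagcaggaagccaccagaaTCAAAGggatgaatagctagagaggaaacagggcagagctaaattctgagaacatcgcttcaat
Eif4e3: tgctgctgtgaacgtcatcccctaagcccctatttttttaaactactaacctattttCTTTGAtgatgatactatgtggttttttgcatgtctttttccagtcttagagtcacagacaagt

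The AP-1 word lay in the central 300 bp of 592 of 1679 lower peaks that could be searched, which is 35.3%, against 12.8% of all tested peaks. It lay in 13.7% of the higher peaks. Read the other way, 5.11% of peaks with the word were called lower and 1.37% of peaks without it. The word was concentrated at the centre of the lower peaks. In the 50 bp just before the centre there were 109.9 words per 1000 lower peaks against 30.4 per 1000 tested peaks. In the outermost bins, 475 bp before and after the centre, the values were 19.002 against 14.01 and 13.7 against 13.7.

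**Figure D1:**
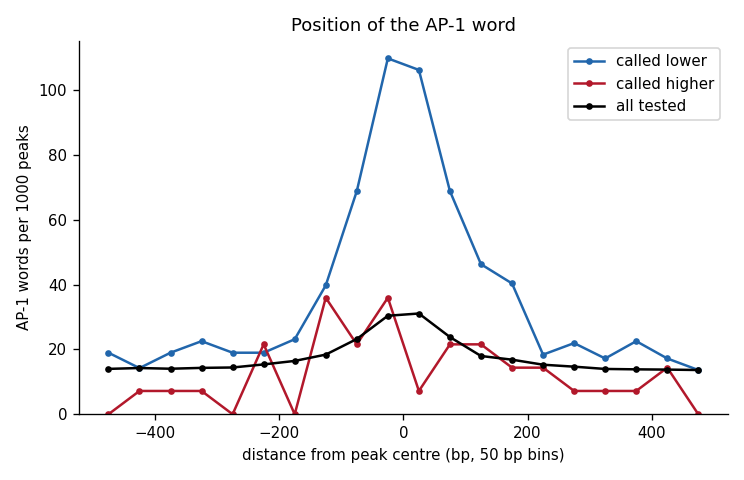
The AP-1 word TGANTCA per 1000 peaks (y axis) by distance from the peak centre in bp (x axis, 50 bp bins), for peaks called lower, called higher and all tested. The line of the lower peaks reaches 109.9 beside the centre, where that of all tested peaks reaches 30.4, and toward the edges the 2 lines come close. The line of the higher peaks rests on 139 peaks and moves in steps.

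Other words were counted in the same way. RUNX (TGTGGTT) was found in 20.01% of lower, 12.9% of higher and 10.7% of tested peaks, and ETS (AGGAAGT) in 24.9%, 9.35% and 15.99%. The word of GATA factors, AGATAA, was more frequent in both directions, at 21.8% and 25.9% against 14.6%. TCF/LEF (TCAAAG) was found in 36.0% of higher peaks, 20.5% of lower and 21.4% of tested peaks. The forkhead word TGTTTAC was found in 7.03%, 3.60% and 4.36% of lower, higher and tested peaks, the kB word in 6.97%, 8.63% and 5.76%, the E-box CACGTG in 6.02%, 1.44% and 6.16%, and the Sp/KLF word GGGCGG in 8.81%, 10.8% and 18.9%. Of peaks with none of the AP-1, RUNX and ETS words, 1.03% were called lower. This was 4.69% with AP-1 alone, 2.72% with RUNX alone, 2.104% with ETS alone and 6.55% with AP-1 and RUNX, whether or not ETS was there. It was 9.84% of the 254 peaks with all 3. These shares are descriptions of sequence, with both strands searched, and do not say which factor was bound. GC content was similar across these classes of words (medians between 46.2% and 49.5%).

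The changed sites were distal. Promoter peaks, within 1 kb of any protein-coding transcript start, made up 17.95% of tested peaks, 4.81% of lower and 7.19% of higher peaks. Sites 10 to 50 kb from the nearest start made up 34.8% of tested and 45.2% of lower peaks. When peaks were split into 5 bins of equal size by GC content, 0.496% of the bin with the highest GC, which holds many promoters, were called lower, and 1.62% to 2.58% of the other bins. Within peaks away from promoters the AP-1 word was still in 35.7% of lower peaks against 14.4% of all.

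Each direction held with either lung control. The fit was repeated with control 1 left out and with control 2 left out, and a peak was taken to hold if its log2 fold change kept its sign and stayed above 0.5 in size in both. This was so for 1670 of 1684 lower peaks and 135 of 139 higher peaks, against 21.6% of all tested peaks. The 14 lower and 4 higher peaks that did not hold all failed when control 2 was left out, and 0 failed without control 1. The median log2 fold change of the lower peaks was -1.96 against control 2 alone and -1.60 against control 1 alone. For the higher peaks it was 1.30 and 1.29. In all, 1394 of the 1684 lower peaks had the larger change against control 2. Both Vps34-deficient libraries lay on the same side of both controls at every called peak, which 46.5% of all tested peaks also do. These counts describe the size of a change with 1 control and are not tests. The peaks were called with both controls in the fit at a log2 fold change above 0.5, which favours holding. The share of all tested peaks is therefore no measure of chance.

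**Figure D2:**
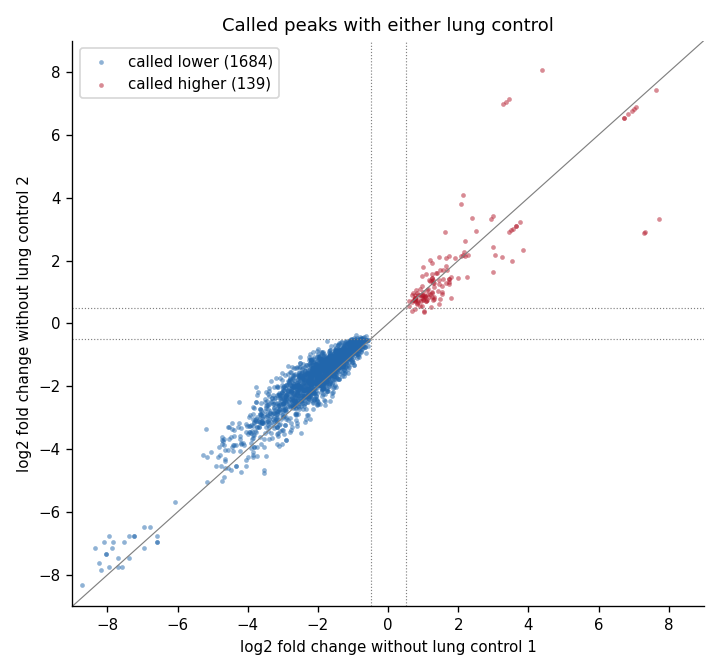
Log2 fold change of each called peak without lung control 1 (x axis) and without lung control 2 (y axis), with 1684 lower peaks in blue and 139 higher peaks in red. Dotted lines mark 0.5 in size and the diagonal marks equal values. The points stay in the lower left and upper right corners, and most lower peaks are farther from 0 on the x axis.

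The number of significant peaks did depend on the libraries. With 1 control the lone library is assumed to vary like the others. Without control 1, 4776 lower and 3982 higher peaks were called, and without control 2, 1206 and 415. Without Vps34-deficient 1 only 23 lower and 0 higher peaks were called, and without Vps34-deficient 2 the numbers were 1385 and 165. With all 10 libraries in the fit, which pools the spread with spleen, 3632 lower (3.74% of 97109 tested) and 1188 higher peaks (1.22%) were called. Where gene lists are given below for this fit, their shares are over peaks that passed the 4-library filter. The 3.74% and 1.22% beside them are over all 97109, so the sets of peaks differ. Of the 1684 lower peaks, 946 were called lower in both 10-library fits that left out a lung control, and of the 139 higher peaks 82 were.

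Pik3c3, the targeted gene, had 6 tested peaks inside it or up to 10 kb away, and 0 were called. Its promoter peak was at 52.8 and 58.1 CPM in controls 1 and 2 and 55.1 and 61.3 CPM in Vps34-deficient 1 and 2. These values overlap, with a log2 fold change of 0.07 ± 0.14 (SE). Accessibility here does not check the deletion, since none of these counts was taken over the deleted part as such.

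The 12 lower peaks with the smallest p lay outside promoters. The lower peak with the smallest p lay in an intron nearest to the start of Arhgef28, a guanine nucleotide exchange factor gene, and was at 42.9 and 51.8 CPM in the 2 control libraries, against 6.34 and 9.44 CPM without Vps34. Its log2 fold change was -2.60 ± 0.22 (edgeR adjusted p = 9.66e-05). The next, in an intron nearest to Arnt2, a bHLH transcription factor gene, was at 19.9 and 23.9 CPM against 1.14 and 2.31 CPM. That is a log2 fold change of -3.70 ± 0.34 (edgeR adjusted p = 0.000123). In both, the controls were alike and far above both Vps34-deficient libraries.

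The site of Nt5c2, a cytosolic nucleotidase gene, changed most among these 12, from 12.8 and 18.7 CPM to 1.30 and 0.630 CPM (log2 fold change -3.98 ± 0.40). The site by Plk3, a polo-like kinase gene, was at 12.4 and 16.6 CPM against 1.30 and 0.839 CPM. The intergenic site nearest to Jag1, which encodes a ligand of Notch, was at 29.3 and 36.5 CPM against 3.90 and 6.51 CPM. All 3 held the AP-1 word shown above. At Jag1 the promoter peak fell as well, from 60.01 and 60.5 CPM to 32.0 and 31.5 CPM.

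The remaining sites among these 12 were nearest to Tatdn1, Klrg1, Rbms3, Map1b, Tm2d1, Lnx2 and Hdc, the histidine decarboxylase gene. Their log2 fold changes ran from -3.39 at Klrg1 to -1.76 at Rbms3, with edgeR adjusted p of 0.000123 or 0.000137. Rbms3 was the exception to the order of the controls, with 63.9 CPM in control 1 and 54.7 CPM in control 2, against 15.6 and 19.5 CPM. At the other 11, control 2 was the higher control. Without control 1 the 12 changes were between -4.22 and -1.65, and without control 2 between -3.67 and -1.66.

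**Figure D3:**
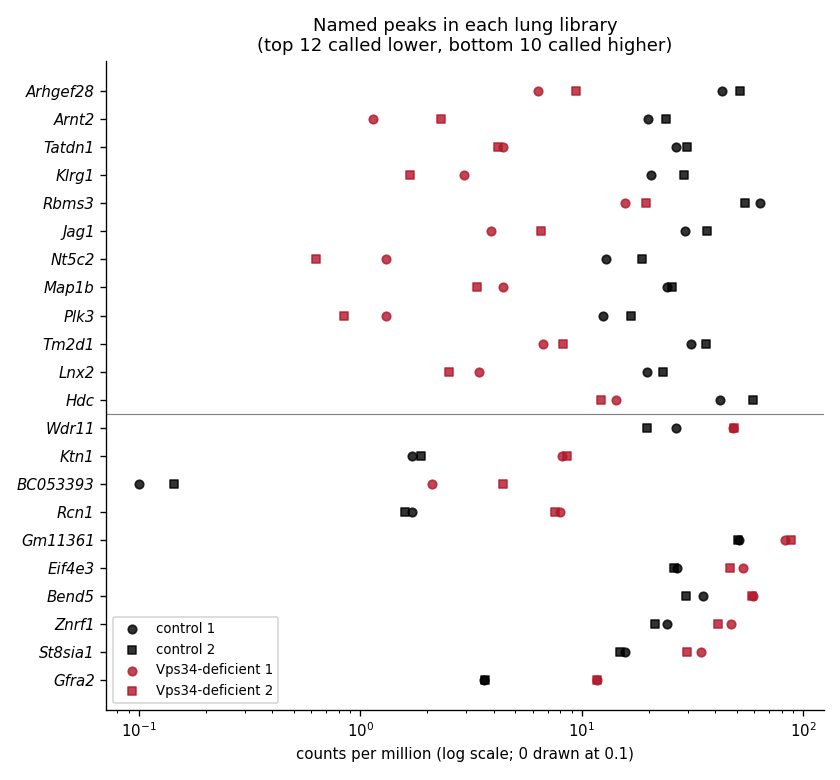
CPM in each of the 4 lung libraries (log x axis) at the 12 named lower peaks and the 10 named higher peaks, labelled by the nearest gene start. Controls are black and Vps34-deficient libraries red, with circles for replicate 1 and squares for replicate 2. The colours do not overlap in any row, as the rule for naming requires.

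Losses also clustered within genes. Of the 1195 genes nearest to a lower peak, 42 had 4 or more, and 33 runs of at least 4 lower peaks less than 50 kb apart held 159 peaks. Tested peaks of a run were counted from its first to its last lower peak, so both ends are lower by construction. The run with the most peaks, 9 of 12 tested, spanned 151.2 kb and included Pparg. Runs of lower peaks were also found at Il10 (8 of 11 tested), Atxn1 (8 of 23), Il1rl1 with Il18r1 (6 of 18), Klrg1 (6 of 10), Rbpj (5 of 11), Socs2 (4 of 4) and Ccr4 with Tmppe (4 of 12). Within 100 kb of the start, 8 of 31 tested peaks were lower at Il10 and 6 of 27 at Il1rl1. These shares were 6 of 17 at Klrg1 and 4 of 8 at Pparg. The higher peaks formed 135 runs, 132 of them of 1 peak.

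Il10, the anti-inflammatory cytokine gene, was nearest to 12 tested peaks, of which 8 were called lower and held with either control. The most changed, 19.2 kb before the start, was at 16.7 and 30.0 CPM in the 2 control libraries, against 3.41 and 3.99 CPM without Vps34. Its log2 fold change was -2.67 ± 0.32 (edgeR adjusted p = 0.000312), and -3.02 and -2.17 against control 2 and control 1 alone. A highly open peak 16.5 kb before the start was at 45.1 and 78.4 CPM against 10.6 and 18.05 CPM. A peak over an exon, 1.82 kb after the start, was at 15.2 and 23.2 CPM against 4.39 and 4.41 CPM. Control 2 was above control 1 at all 8, and control 1 above both Vps34-deficient libraries.

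Klrg1 encodes a receptor of terminally differentiated effector cells. Of 13 peaks nearest to it, 6 were called lower. The peak 20.1 kb after the start, beyond the gene, was at 20.5 and 28.8 CPM in the 2 control libraries, against 2.92 and 1.68 CPM without Vps34, with a log2 fold change of -3.39 ± 0.32 (edgeR adjusted p = 0.000123). The promoter peak over the start was at 5.34 and 5.90 CPM against 0.650 and 1.05 CPM, a log2 fold change of -2.74 ± 0.48 (edgeR adjusted p = 0.00525). The peak 6.71 kb before the start was at 7.05 and 13.7 CPM against 1.62 and 1.05 CPM. The lower peaks were at promoter and distal sites alike. Not all sites of the locus moved: a more open peak 9.06 kb before the start, with a mean of 25.8 CPM over the 4 libraries, was not called at a log2 fold change of -0.36, and a weak one 30.03 kb after it was not called at 1.71.

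Pparg, a nuclear receptor gene of tissue Tregs, had 6 lower peaks of 8 tested, in its introns and 45.0 kb before it. The intronic peak at chr6:115440368-115441097 was at 11.1 and 17.3 CPM against 2.44 and 3.15 CPM, with a log2 fold change of -2.36 ± 0.34 (edgeR adjusted p = 0.00137). One intronic peak had 0 counts in both Vps34-deficient libraries and 12 and 22 counts in the controls. With mates of a fragment counted once, the 95% exact binomial interval of the control to Vps34-deficient ratio starts at 3.87 and covers counting error only.

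Il1rl1 had 5 lower peaks of 16. The most changed, 36.1 kb before the start, was at 14.3 and 21.7 CPM against 2.60 and 3.15 CPM, a log2 fold change of -2.66 ± 0.32 (edgeR adjusted p = 0.000354). The promoter peak was at 3.63 and 9.78 CPM against 1.14 and 1.26 CPM. There the controls lay well apart, and the log2 fold change was -3.02 against control 2 alone and -1.59 against control 1 alone.

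**Figure D4:**
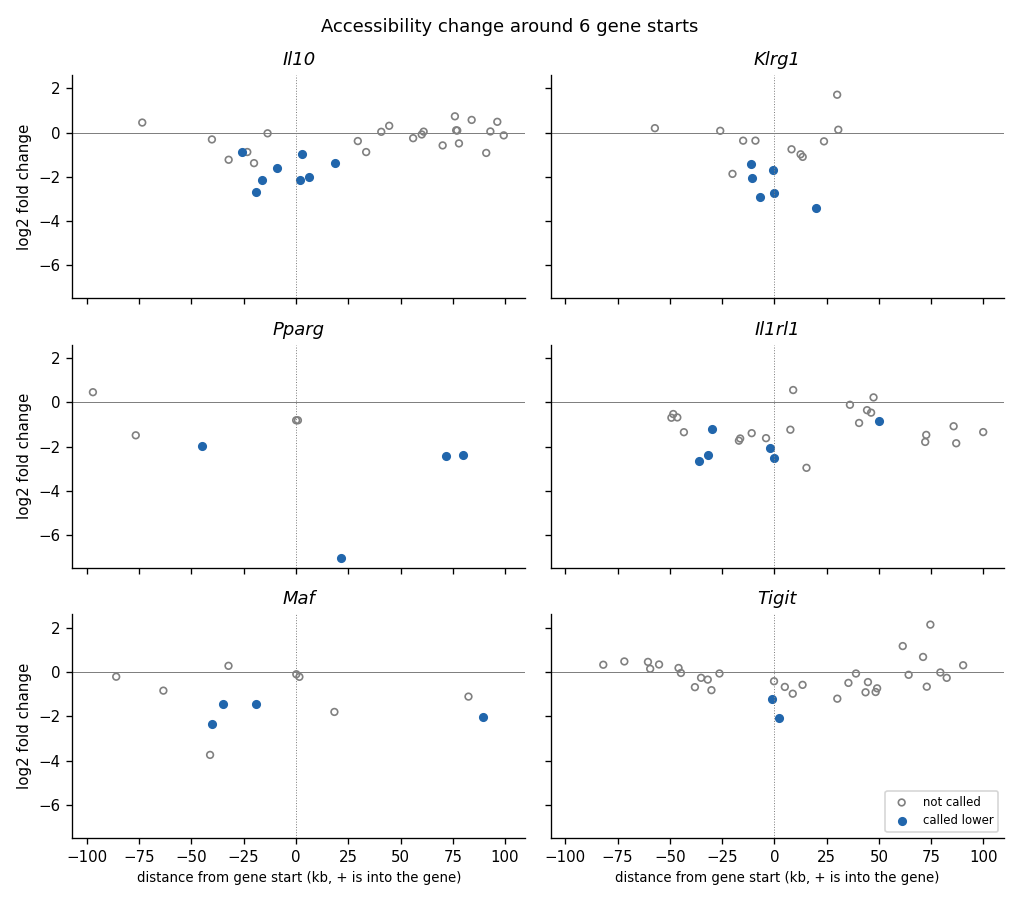
Log2 fold change (y axis) of every tested peak within 100 kb of the start of Il10, Klrg1, Pparg, Il1rl1, Maf and Tigit, by distance from the start in kb (x axis, positive in the direction of transcription). Filled blue points were called lower and open points were not called, and no peak in these windows was called higher. Called peaks lie on both sides of each start, all of them below 0. The lowest Pparg point has 0 counts in both Vps34-deficient libraries, so its height depends on the prior count.

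Maf, whose product c-Maf is a transcription factor that acts on Il10 in T cells, had the most lower peaks of any gene, 10 of the 61 nearest to its start, in a large region with few genes. The strongest in p, 89.4 kb after the start, was at 19.4 and 25.5 CPM against 5.52 and 5.67 CPM, a log2 fold change of -2.01 ± 0.27 (edgeR adjusted p = 0.000695). The peak 18.96 kb before the start was at 29.7 and 32.0 CPM against 9.59 and 13.0 CPM. The median log2 fold change of all 61 peaks was -0.43. The 10 lower peaks lay 18.96 to 431 kb from the start, the farthest in an intron of another gene. Of 3 tested peaks in Maf or within 10 kb of it, 0 were called. The very open peak at its start, with a mean of 95.6 CPM over the 4 libraries, had a log2 fold change of -0.09.

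The other genes named for most lower peaks, with ties at 5 peaks resolved by the smallest p so that further genes with 5 are not named, were Atxn1 (8 of 35), Smad3, a transducer of TGF-β signals (6 of 32), Galnt2, an enzyme of O-glycosylation (5 of 19), Itpr1, a calcium channel of the endoplasmic reticulum (5 of 49), and Camk2d, a calcium-dependent kinase (5 of 36). An intronic peak of Smad3 was at 17.3 and 20.7 CPM against 4.22 and 1.99 CPM. Of the 5 lower peaks of Galnt2, 4 were above 36 CPM in both controls and the fifth was at 6.19 and 8.27 CPM. The most open was at 68.8 and 87.0 CPM against 34.1 and 30.4 CPM, a log2 fold change of -1.27 ± 0.15 (edgeR adjusted p = 0.000354). At Itpr1 and Camk2d the median over all nearest peaks was -0.17 and -0.16. All lower peaks of these 10 genes held with either control.

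Gains were smaller in size and number. The higher peak with the smallest p, in a region with no gene, 167 kb from the nearest start (Wdr11), was at 26.7 and 19.6 CPM in the 2 control libraries, against 48.1 and 48.5 CPM without Vps34. Its log2 fold change was 1.07 ± 0.18 (edgeR adjusted p = 0.00388), and 1.30 and 0.86 against control 2 and control 1 alone. An intronic peak nearest to Rcn1, which encodes a calcium-binding protein of the endoplasmic reticulum, rose from 1.71 and 1.58 CPM to 7.96 and 7.56 CPM, a log2 fold change of 2.24 ± 0.38 (edgeR adjusted p = 0.00476). A peak nearest to Ktn1 rose from 1.71 and 1.87 CPM to 8.12 and 8.60 CPM. At the Rcn1 and Ktn1 peaks the 2 libraries of a genotype were close together, while at the Wdr11 peak the controls lay further apart.

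The other named gains varied in size and openness. A peak nearest to Gm11361 was at 51.0 and 50.6 CPM against 82.7 and 88.0 CPM (log2 fold change 0.75 ± 0.13), and an intronic peak of Eif4e3, a cap-binding protein gene, at 26.9 and 26.04 CPM against 53.5 and 46.6 CPM (0.92 ± 0.16). The promoter peak of Bend5 was at 35.2 and 29.3 CPM against 59.3 and 58.3 CPM (0.87 ± 0.15). Peaks nearest to Znrf1, St8sia1 and Gfra2 had log2 fold changes of 0.96, 1.09 and 1.68. The edgeR adjusted p of these 6 peaks was between 0.00524 and 0.00753.

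BC053393 had 3 higher peaks of 4, all with 4 counts or fewer in each control. The strongest had 0 and 2 counts in controls and 26 and 42 in Vps34-deficient libraries. With mates of a fragment counted once, the ratio was 36.2, with a 95% exact binomial interval of 6.07 to 1472 that covers counting error only. Dusp10, a phosphatase gene that acts on p38 and JNK, had 3 higher peaks of 56, the most open at 36.5 and 36.9 CPM against 65.3 and 56.7 CPM, a log2 fold change of 0.73 ± 0.15 (edgeR adjusted p = 0.0138).

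Ccr7, the receptor for homing to lymphoid organs, had 2 higher peaks among 24. One was at 14.7 and 13.8 CPM in the 2 control libraries, against 28.0 and 26.8 CPM without Vps34, a log2 fold change of 0.94 ± 0.21 (edgeR adjusted p = 0.0227). The other was at 24.8 and 29.2 CPM against 50.0 and 43.4 CPM. Its values held at 0.68 and 0.92 on the log2 scale against control 2 and control 1 alone. Cers6, a ceramide synthase gene, had 2 higher peaks of 18.

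Gene lists were then counted, with a peak assigned to a gene if it overlapped the gene body or the 10 kb on either side. Of 192 peaks of the 20 terminal effector and tissue Treg genes, 17 were called lower (8.85%, against 1.85% of all tested peaks) and 0 higher, with a median log2 fold change of -0.27. They belonged to 7 genes, among them Klrg1 (4), Pparg (5), Il1rl1 (2), Rora (3), Cxcr6 (1) and Il2rb (1). Rora encodes a nuclear receptor, and its intronic peak at chr9:69155805-69156936 was at 10.0 and 12.7 CPM against 3.41 and 3.99 CPM. The peak over a transcript start of Il2rb, a chain of the receptor for IL-2 and IL-15, was at 27.1 and 37.98 CPM against 18.2 and 13.4 CPM. The peak counted for the chemokine receptor gene Cxcr6, at 14.1 and 17.6 CPM against 4.39 and 6.51 CPM, lay past the end of the gene in an intron of another gene.

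**Figure D5:**
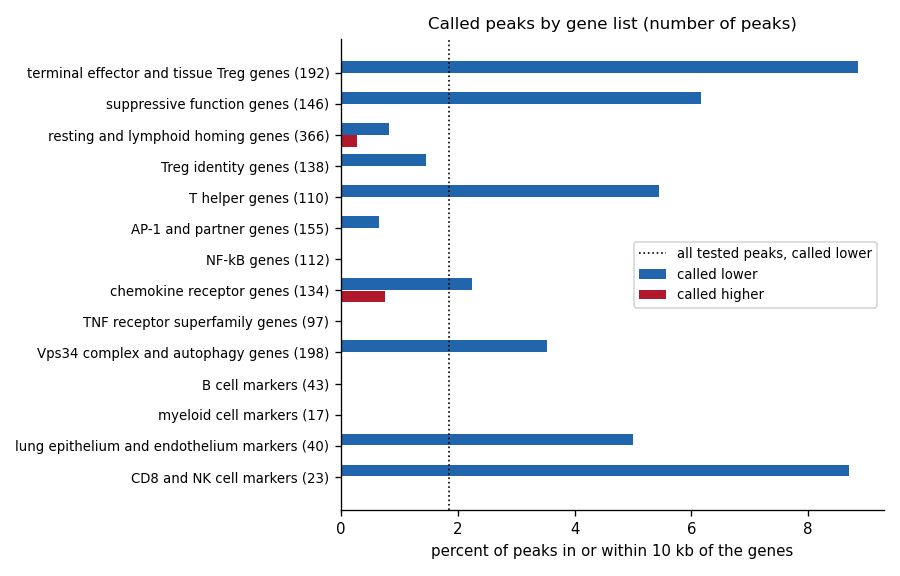
Percent of the peaks in or within 10 kb of the genes of each list (x axis) that were called lower (blue) or higher (red), with the number of peaks of each list in brackets. The dotted line marks the 1.85% of all tested peaks that were called lower. The terminal effector and tissue Treg genes are at 8.85% and the suppressive function genes at 6.16%, while the bar of the CD8 and NK cell markers rests on 2 of 23 peaks.

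Of the 146 peaks of 16 suppressive function genes, 9 were called lower (6.16%) and 0 higher. Beside 4 at Il10 these were 2 at Tigit, an inhibitory receptor gene, and 1 each at Entpd1, Fgl2 and Gzmb. The intronic Tigit peak was at 17.8 and 31.1 CPM in the 2 control libraries, against 5.04 and 6.93 CPM without Vps34, a log2 fold change of -2.05 ± 0.30 (edgeR adjusted p = 0.00147). The peak counted for Fgl2, which encodes a secreted mediator of suppression, lay past the end of the gene in an intron of another gene and was at 24.8 and 35.7 CPM against 14.5 and 13.0 CPM. At Gzmb, which encodes granzyme B, the promoter peak was at 7.48 and 11.4 CPM against 3.74 and 2.94 CPM.

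Among 110 peaks of T helper genes, 6 were called lower (5.45%) and 0 higher. With all 10 libraries in the fit these were 7 lower (6.36%, against 3.74% of all) and 4 higher (3.64%, against 1.22%). The intronic peak of Tbx21, which encodes T-bet, the regulator of type 1 responses, was at 5.77 and 7.19 CPM against 0.162 and 0.420 CPM, a log2 fold change of -4.50 ± 0.57 (edgeR adjusted p = 0.000492). A peak of Stat4, which acts in the same responses, was at 13.9 and 15.7 CPM against 4.71 and 4.83 CPM. Of 2 peaks by Il17a, the stronger was at 41.4 and 50.4 CPM against 5.20 and 16.4 CPM. There the Vps34-deficient libraries differed from each other more than the controls did. A peak near Il4 and Il13 and a promoter peak of Cxcr3, with 24 and 36 counts against 0 and 2, were the others.

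Genes of resting and lymphoid homing Tregs had 3 lower peaks and 1 higher peak among 366 (0.820% lower), and their median log2 fold change was 0.22. Of the lower peaks, 2 were at Lef1, a TCF/LEF factor gene (25.6 and 29.8 CPM against 12.2 and 14.7 CPM beside an internal transcript start). The other lower peak of Lef1 lay past the end of the gene, nearest to the start of Hadh. With all 10 libraries in the fit, 6 peaks of this list were called lower (1.64%, against 3.74% of all) and 10 higher (2.73%, against 1.22%), so the balance of the directions depended on the fit. The most open peak of Tcf7, which encodes TCF-1, was not called, with overlapping values of 27.98 and 39.99 CPM against 35.1 and 23.7 CPM.

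Treg identity genes had 2 lower peaks of 138 (1.45%), at Ikzf2 and by Trac. With all 10 libraries in the fit this list had 9 lower (6.52%, against 3.74% of all) and 1 higher. Foxp3 had 12 tested peaks, and 0 were called. Its most open peak was at 45.1 and 62.1 CPM in the 2 control libraries, against 56.4 and 47.4 CPM without Vps34, which overlap. Promoter peaks of Ctla4 (40.2 and 47.9 CPM against 43.4 and 35.3 CPM) and Ikzf2 (60.7 and 69.3 CPM against 62.7 and 57.5 CPM, over 2 peaks) were open in all 4 libraries. The promoter peak of Foxp3 was weaker, at 5.55 and 4.46 CPM against 4.06 and 4.62 CPM.

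The 30 genes of the Vps34 complexes and of autophagy had 7 lower peaks of 198 (3.54%) and 0 higher. The 10-library fit called 11 lower (5.56%, against 3.74% of all) and 2 higher. At Atg7, an enzyme of the autophagy conjugation systems, 2 peaks inside the gene, beside an internal transcript start, were lower, at 21.6 and 23.2 CPM against 10.4 and 11.3 CPM and at 6.62 and 10.4 CPM against 1.95 and 2.52 CPM. Atg10, which acts in the same system, had 2, one of them at 49.5 and 56.1 CPM against 24.4 and 22.04 CPM (log2 fold change -1.19 ± 0.16, edgeR adjusted p = 0.000971). Uvrag had 1. The peaks counted for Sqstm1 and Atg5 lay nearest to the starts of Mgat4b and Prdm1 and may belong to those genes.

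AP-1 and partner genes had 1 lower peak of 155, in an intron of Atf3 (7.90 and 13.0 CPM against 1.71 and 1.89 CPM). Genes of the NF-kB family and of the TNF receptor superfamily had 0 calls among 112 and 97 peaks by edgeR with 4 libraries. With all 10 libraries in the fit, 12 NF-kB peaks (10.7%) and 4 TNF receptor superfamily peaks (4.12%) were called lower, against 3.74% of all peaks in that fit, and 0 and 1 higher. There AP-1 and partner genes had 2 lower and 5 higher (3.23%, against 1.22% of all). Chemokine receptor genes had 3 lower peaks of 134 (2.24%, near the 1.85% of all tested), at Cxcr3, Cxcr6 and Xcr1, and 1 higher peak, at Ccr7. In the 10-library fit 7 were lower (5.22%, against 3.74%). The peak counted for Xcr1 lay nearest to the start of Fyco1.

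A few promoter peaks, some of them beside internal transcript starts, were lower along with the distal sites. In all, 81 of 16297 promoter peaks (0.497%) were called lower and 10 higher. Chosen after their values were seen, they included S100a4, with 7.26 and 6.33 CPM against 1.30 and 1.47 CPM at the stronger of 2 peaks, Ctsh, the gene of cathepsin H, with 10.0 and 9.64 CPM against 2.44 and 2.94 CPM, and Runx3, a RUNX factor gene, with 43.6 and 57.7 CPM against 30.1 and 27.3 CPM. The cytokine genes Il2 (10.0 and 10.9 CPM against 4.06 and 3.99 CPM) and Il5 (4.06 and 6.19 CPM against 1.62 and 0.630 CPM) were also among them.

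Markers of other cells were counted in the same way. By edgeR with 4 libraries, B cell markers had 0 calls among 43 peaks and myeloid markers 0 among 17. With all 10 libraries in the fit, B cell markers had 0 lower, myeloid markers 2 (11.8%), lung epithelium and endothelium markers 5 of 40 (12.5%) and CD8 and NK cell markers 2 of 23 (8.70%), against 3.74% of all peaks, so the shares of the last 3 lists were above the background there, as were those of the terminal effector (16.7%) and suppressive function (10.96%) genes. Genes with no promoter peak among those tested included Cd79a, Ms4a1, Csf1r, Lyz2, Cd68, Fcgr3, Adgre1, Sftpc, Sftpb, Ncr1 and Klrb1c, and also the T cell gene Trac. Other markers had promoter peaks in all 4 libraries, among them Pax5 (13.2 to 19.1 CPM), Ebf1 (11.9 to 15.5 CPM), Epcam (16.9 to 23.02 CPM) and Pecam1 (21.8 to 27.1 CPM), and the genotypes overlapped at these except Ebf1, where both controls were higher. Over the promoter peaks that were tested, the summed level was 33.3, 40.2, 33.2 and 36.2 CPM for B cells, 8.12, 7.12, 8.12 and 8.39 CPM for myeloid cells, 52.1, 66.5, 53.3 and 57.3 CPM for lung epithelium and endothelium, and 35.7, 34.3, 34.3 and 40.7 CPM for CD8 and NK cells, in control 1, control 2, Vps34-deficient 1 and Vps34-deficient 2 in turn. Lung epithelium and endothelium had 2 lower peaks of 40 (5%, against 1.85% of all tested peaks), in introns counted for Cdh1 and Pecam1, and CD8 and NK cells had 2 of 23 (8.70%, close to the share of the terminal effector list), beside Nkg7 (8.12 and 10.4 CPM against 2.11 and 2.94 CPM) and Gzma (5.98 and 5.75 CPM against 0.975 and 0.839 CPM), which encode proteins of cytotoxic granules. The part of other cells in the results was not tested.

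Spleen values are given beside lung. In spleen, 994 peaks were called lower (1.02% of 97109) and 428 higher (0.441%). Of the 1684 peaks called lower in lung, 640 were called lower in spleen and 0 higher, and their median log2 fold change in spleen was -0.86. At the Klrg1 peak beyond the gene it was -1.84, at the Jag1 site -2.95 and at the Il10 peak 19.2 kb before the start -1.04. At the promoter peak of Il1rl1 it was -0.30 and at the Il2rb start -0.08, with spleen adjusted p of 0.757 and 0.874 by edgeR. Of the 139 higher peaks, 13 were called higher in spleen, and their median there was 0.45. The difference between lung and spleen was tested as an interaction in edgeR, and 0 of 97109 peaks passed an adjusted p of 0.05, with 7060 at an unadjusted p below 0.05. The smallest adjusted p was 0.160. No peak can therefore be called particular to lung.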

How the data were processed

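ATAC-seq profiled Tregs that had been sorted from the lung or the spleen of mice aged 10 days, and the 4 lung libraries were analysed here. The authors trimmed, aligned and de-duplicated paired reads, shifted them for the Tn5 cut, kept nucleosome-free fragments, called peaks with MACS2 in each sample, kept those found in at least 50% of replicates, and merged them. The deposited values are raw whole-number counts per peak, made by the authors with bedtools. Between 94.1% and 96.5% of the peak counts in a lung library were even, because each fragment was counted by both of its mates, and the counts therefore overstate independent fragments. The study's methods name an older assembly, but on GRCm38 a peak covered 51.2% of the starts of 21951 protein-coding genes, against 1.98% to 2.82% after shifts, so GRCm38 with GENCODE M21 was used, with sequences from the RefSeq copy of that build.

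From the 97385 peaks, filterByExpr in edgeR 4.0.16 (R 4.3.3) kept 90786 over the 4 lung libraries. Counts were scaled with TMM factors and tested by edgeR's quasi-likelihood method. Calls used p-values adjusted over all tested peaks by the Benjamini-Hochberg procedure, at the thresholds of the study (adjusted p below 0.05, log2 fold change above 0.5 in size). The study's own tool was DESeq2, which was an alternative here (version 1.42.0). Each standard error is the log2 fold change divided by the square root of its F value. Leave-out fits used the same 90786 peaks. The spleen values and the interaction came from a 4-group fit to all 10 libraries.

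Named peaks were the 12 lower and 10 higher called peaks with the smallest p and no overlap between groups, the peaks of the 10 and 5 genes with most calls, and the called peaks of 14 gene lists. The members and lists were chosen with earlier results of these data known. Same-numbered libraries correlated at r = -0.12 in their deviations from the group means, and the numbers were not taken as pairs. With 2 libraries in each group, the 0.12 of differently numbered ones is this value with its sign changed. No replicates agreed within counting noise. Alternatives were other scalings, filters, thresholds, chromosomes, GC offsets, halved counts, DESeq2, blocks and leaving out each library. The crossed block was chosen after seeing the data. Footprints and the RNA measurements from single cells were not used here, and some genes of the lists are not reported here.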

Additional observations from a re-analysis of the deposited data

How the results depend on the processing

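At the main settings 139 peaks were higher and 1684 lower. RLE factors, library size scaling, no count filter, at least 20 counts in 2 libraries, halved counts, a GC offset, autosomes alone, DESeq2 with library size scaling and a fold limit of 1 or none kept both counts within 1.5 times. DESeq2 with median-of-ratios factors called 83 higher peaks. The 10-library fit called 1188 higher and 3632 lower, and the replicate block 307 higher and 2030 lower. The numbers correlated negatively, and the crossed replicate block, which also splits the libraries by chromosome Y signal, called 1698 higher and 3969 lower. Leaving out 1 lung library gave 0 to 3982 higher and 23 to 4776 lower in the 4-library fit, and 390 to 4069 higher and 1116 to 4719 lower in the 10-library fit (406 and 805 higher without Vps34-deficient 1 and 2). The cause of these shifts was not tested. The lowest 4-library counts came without Vps34-deficient 1 and the highest without control 1.

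All 129 named called peaks kept their direction under every setting in which they were tested. Under DESeq2, 13 (median-of-ratios factors) and 21 (library size) of them missed the threshold, without lung control 2 32 did, and without Vps34-deficient 1 118 did. Values near 0 changed sign. The log2 fold change at the most open Foxp3 peak was -0.05, and 0.021 with the GC offset. Leaving out 1 lung library gave -0.26 to 0.21 there with 4 libraries (0.070 without Vps34-deficient 2, and 0.098 with 10 libraries) and -0.010 to 0.15 at the Pik3c3 promoter. At the most open Tcf7 peak (-0.21) it gave -0.51 to 0.081 with 4 libraries and -0.54 to 0.083 with 10 (0.042 and 0.069 without Vps34-deficient 2). The AP-1 word was in 29.3% of lower peaks within the central 200 bp (9.72% of all tested) and in 43.4% over the whole peak (16.2%). With a window of 50 kb in place of 10 kb, 39 of 364 peaks of the terminal effector and tissue Treg genes were lower, and with 2 kb 14 of 157.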
